A study of Mus musculus with 4 samples.

Results

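The genes described here encode the giant scaffold protein AHNAK, 4 annexins, 3 S100 proteins and the ferlin dysferlin, proteins that meet at the inner face of the plasma membrane. The 9 members (*Ahnak*, *Anxa1*, *Anxa2*, *Anxa5*, *Anxa6*, *S100a6*, *S100a10*, *S100a11* and *Dysf*) were taken by gene symbol from a table of 12693 gene symbols, and all 9 were listed and passed the filter on low values. The members were named with results of the same comparison already known, so their differences between the groups are descriptions, and counts of members past a threshold are set beside the share of all genes only.

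The data were bulk RNA-seq of brain endothelial cells (ECs) sorted with a CD31 antibody from the cerebral cortex of C57BL/6 mouse embryos at embryonic day 18. The wild-type group held 2 samples and the *Foxq1* conditional knockout (cKO) group 2, the latter labelled FOXQ1fl/fl;Tie2-Cre, and the comparison asks which transcripts change when this forkhead transcription factor is removed from ECs. Controls in this mouse colony were littermates without the Cre transgene, and whether these wild-type samples carried floxed alleles was not given. Tie2 drives Cre in ECs and also in part of the blood lineage, so recombination is not limited to the sorted cell type, and the labels do not say whether samples came from separate animals, so p-values measure only the spread between these samples.

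AHNAK is a very long protein built largely of repeated units, and it is held at the plasma membrane by a complex of annexin A2 and its S100 partner S100A10. Annexins bind acidic phospholipids in the presence of calcium, and several of them pair with an S100 protein that bridges annexin-coated membranes. Dysferlin is a calcium-binding membrane protein with multiple C2 domains, best known for bringing vesicles to membrane wounds in muscle, where AHNAK and annexins A1 and A2 are among its binding partners.

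Promoter sequences are shown for *Ahnak*, *Anxa2*, *Anxa5* and *Dysf*, the 4 members whose *Foxq1* cKO samples both lay below both wild-type samples, because the deleted gene encodes a DNA-binding factor. Each line gives the 250 bases before an annotated transcription start from RefSeq (build GRCm38.p6), 5′ to 3′ on the strand of the gene, in lower case. Capitals mark GTTTC or its reverse complement GAAAC, a short motif the study examined for FOXQ1, searched here as letters alone on both strands.
*Ahnak* (chr19:8989034-8989283, plus strand): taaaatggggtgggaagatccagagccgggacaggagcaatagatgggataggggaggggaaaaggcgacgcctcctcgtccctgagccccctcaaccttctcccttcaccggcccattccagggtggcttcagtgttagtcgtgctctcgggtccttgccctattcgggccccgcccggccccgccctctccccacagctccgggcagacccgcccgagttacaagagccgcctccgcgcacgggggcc
*Anxa2* (chr9:69453433-69453682, plus strand): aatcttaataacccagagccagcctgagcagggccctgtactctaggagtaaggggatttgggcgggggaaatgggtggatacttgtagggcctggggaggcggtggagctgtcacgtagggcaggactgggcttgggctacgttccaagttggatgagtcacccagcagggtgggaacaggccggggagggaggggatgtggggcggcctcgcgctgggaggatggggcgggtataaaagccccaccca
*Anxa5* (chr3:36475888-36476137, minus strand): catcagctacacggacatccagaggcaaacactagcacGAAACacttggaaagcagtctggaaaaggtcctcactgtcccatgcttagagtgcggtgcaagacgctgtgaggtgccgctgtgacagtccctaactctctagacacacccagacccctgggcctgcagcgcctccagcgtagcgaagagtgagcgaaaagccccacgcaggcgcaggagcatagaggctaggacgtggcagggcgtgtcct
*Dysf* first start (chr6:84008348-84008597, plus strand): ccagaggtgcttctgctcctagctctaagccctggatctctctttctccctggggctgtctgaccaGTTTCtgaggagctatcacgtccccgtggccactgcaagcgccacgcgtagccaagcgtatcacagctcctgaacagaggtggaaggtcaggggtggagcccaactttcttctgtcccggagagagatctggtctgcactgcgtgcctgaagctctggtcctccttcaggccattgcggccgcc
*Dysf* second start (chr6:84019136-84019385, plus strand): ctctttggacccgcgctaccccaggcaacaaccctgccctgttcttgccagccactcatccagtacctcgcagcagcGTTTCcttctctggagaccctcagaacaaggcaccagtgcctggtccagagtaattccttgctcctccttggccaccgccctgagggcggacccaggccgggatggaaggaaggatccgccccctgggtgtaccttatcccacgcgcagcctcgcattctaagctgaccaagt
The longer forkhead sequence TGTTTAC (reverse complement GTAAACA) was found on neither strand of the 8 windows available for 7 members, and it was present in 3.17% of 32851 promoter windows of the same length. GTTTC or GAAAC was present in the windows of 4 of these 7 members (*Anxa1*, *Anxa5*, *S100a6* and *Dysf*, the last with 2 windows). Counted by single window and not by gene, it was present in 39.7% of all promoter windows. The 2 motifs cannot overlap each other. No match says only that these letters are not in the window. The *Ahnak* window was the richest in G and C among the members (66.4%), while that of *Anxa1* had 46.0% and the median of all promoter windows was 52.4%.

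Reads on listed genes numbered between 15827166 and 21466436 per sample. Values below are normalized counts, which are reads divided by a size factor for each sample. *Foxq1* itself was at 353 and 297 normalized counts in wild-type cells and at 5.44 and 32.6 in *Foxq1* cKO cells, which is 5.84% of the wild-type mean (log2 fold change -4.47, SE 1.04, unadjusted p = 0.00507 and Benjamini-Hochberg adjusted p = 0.857 in limma). All 10 endothelial markers were listed, with summed levels of 372408 to 393510 in wild-type and 327694 to 371809 in *Foxq1* cKO samples, narrowly without overlap. Of the markers for other cells, 5 of 9 fibroblast genes were listed (8941 to 10063 against 5800 to 9551), but *Dcn*, *Lum*, *Ogn* and *Aldh1a2* were not. Of the mural cell markers, 6 of 9 were listed (131584 to 135201 against 127555 to 136828), and *Acta2*, *Tagln* and *Myh11* were not. Mural cell transcripts were thus abundant, and levels given for cells below are those of whole sorted samples, not of ECs alone. All 5 erythroid markers were listed with overlapping sums (15506 to 20453 against 15601 to 20130). Of 6 neutrophil and leukocyte markers only *Ptprc* was listed (5.06 and 95.7 against 265 and 59.0), and *Ngp*, *Camp*, *Ltf*, *Mpo* and *Elane* were not. Of 6 epithelial and choroid plexus markers only *Ttr* was listed (41.3 and 1.99 against 27.2 and 3.05), and *Folr1*, *Cdh1*, *Epcam*, *Krt8* and *Krt18* were not. The table lists only genes with at least 1 read in every sample, so a gene that is not listed need not have been at 0. The other sums that did not overlap between the groups were those of 9 of 9 microglia and macrophage markers (10315 to 12542 against 7474 to 8263), 5 of 6 venous markers (47360 to 49111 against 35036 to 35177), 8 of 8 arterial markers (14000 to 14960 against 12547 to 12806), 6 of 8 neuronal markers (5654 to 5655 against 4054 to 5459) and 5 of 5 radial glia markers (14159 to 14899 against 12542 to 12939). *Vwf* alone carried the venous gap, at 22583 and 18306 against 7114 and 5398, and the other 4 venous markers summed to 26527 and 29054 against 28062 and 29639. Single genes of the other lists were mixed. Both knockout samples were below both wild-type samples for 5 of 10 endothelial and 5 of 8 arterial markers, and above for 1 per list. Lower in that way were 3 of 9 microglia and macrophage, 3 of 5 radial glia and 1 of 6 listed neuronal markers. All remaining markers of these lists overlapped. Of all genes tested, 18.03% were below and 17.95% above. The sums without overlap were lower in the same samples as *Ahnak*, the venous sum only through *Vwf*, and their part in the results below was not tested.

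*Ahnak* showed the widest separation of the members between wild-type and *Foxq1* cKO cells. The gene (ENSMUSG00000069833) lies at chr19:8989284-9076914 on the plus strand of GRCm38, and its longest annotated transcript has 18.1 kb in 5 exons. Its level was 6144 and 7513 normalized counts in wild-type samples 1 and 2, and 2287 and 2480 in *Foxq1* cKO samples 1 and 2. Both knockout samples lay far below both wild-type samples, the nearest pair of samples differed 2.48-fold, and samples of the same group differed by at most 1.22-fold. The group means were 6829 ± 968 and 2384 ± 136 (SD, n = 2 each), so the knockout level was 34.9% of wild-type, with a log2 fold change of -1.51 (SE 0.184). Each value rests on 2101 to 7536 reads. In bulk samples such as these, fewer cells of a type and less RNA per cell cannot be told apart.

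**Figure D1:**
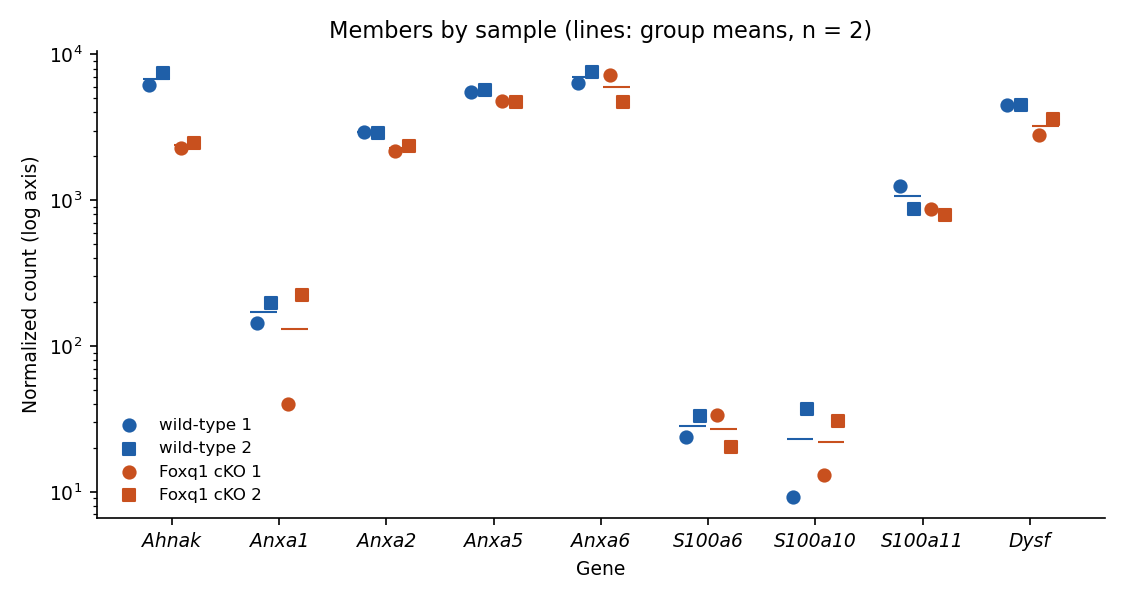
Normalized counts of the 9 members in each sample on a log axis. Circles and squares are samples 1 and 2 of each group (blue, wild-type; orange, *Foxq1* cKO), and horizontal lines are group means with n = 2. *Ahnak* separated the groups at 6144 and 7513 against 2287 and 2480, whereas the samples of *S100a6* and *S100a10* overlapped at 9.27 to 36.9.

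Among all 12472 genes tested, 408 had a log2 fold change below that of *Ahnak*. Only 4 of these were among the 3844 genes with a mean of at least 1000 normalized counts. Because the *Ahnak* transcript is unusually long, genes whose longest annotated transcript is also long were set beside it. That transcript need not be the one expressed in these cells. Of 54 genes with an annotated transcript of at least 15 kb, 30 had a log2 fold change above 0, and their median was 0.086. In the 29 of them with a mean of at least 1000 normalized counts, the median was -0.10. Only *Hmcn2*, named here after its values were seen, was lower than *Ahnak* among the 54, at -1.73 with an SE of 1.50. By transcript length, the median log2 fold change was 0.11 for 974 genes under 1 kb, 0.0019 from 1 to 2 kb, 0.0043 from 2 to 4 kb, -0.0089 from 4 to 8 kb, -0.061 from 8 to 10 kb and 0.043 for 317 genes of 10 kb or more. The medians of the long classes lay near 0, but these classes rest on annotated and not on expressed transcripts. Whether length had a part in the *Ahnak* difference was not tested.

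**Figure D2:**
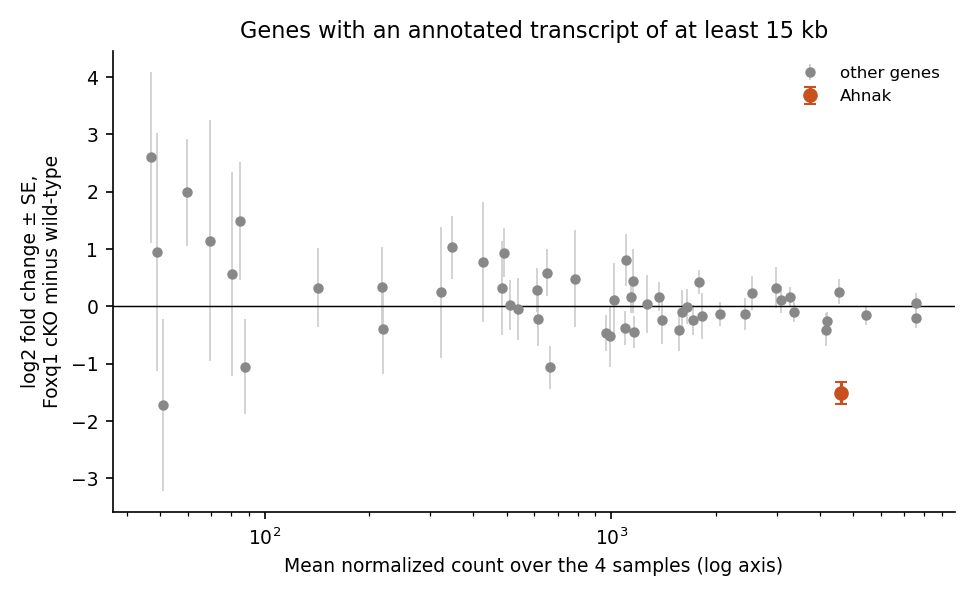
Log2 fold change (*Foxq1* cKO minus wild-type) with its SE against mean normalized count on a log axis, for the 54 genes with an annotated transcript of at least 15 kb. *Ahnak* (orange) lies at -1.51 among genes of similar abundance that lie near 0.

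The repeated units of AHNAK are visible in its message. Of the 18077 positions in the longest transcript at which a stretch of 24 bases can start, 30.8% held a stretch that occurs more than once in the same transcript, and no such stretch occurred in the longest transcript of any of the other 8 members. The most frequent stretch is shown because it stands for these units, and it occurred 15 times.
*Ahnak* repeat: agactggcacctgaagatgcccaa
No stretch of 50 bases of *Ahnak* was shared with another annotated gene, so its reads can recur within the gene but do not match a paralog at that length.

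The genes whose levels over the 4 samples most resembled those of *Ahnak* were found among 11396 genes by the Euclidean distance between log2 levels centred on their mean. *Apba2*, which encodes an adaptor of the X11/Mint family, was nearest with a distance of 0.142 and normalized counts of 699 and 772 (wild-type) and 261 and 288 (*Foxq1* cKO). *Fbrs* followed with a distance of 0.142 and levels of 708, 775, 234 and 254 in the same order. *Zfp942*, a zinc finger gene, was at a distance of 0.180 with levels of 420, 448, 156 and 172. All 3 had far fewer reads than *Ahnak*, and the measure compares 4 samples only.

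The annexin members differed in abundance and in how far the groups overlapped. *Anxa2* (ENSMUSG00000032231, chr9:69453620-69491795, plus strand) encodes the annexin that pairs with S100A10 and anchors AHNAK. Its level was 2937 and 2912 normalized counts in the wild-type group and, in the *Foxq1* cKO group, 2162 and 2371. Both knockout samples were below the nearly equal wild-type samples, with the nearest pair 1.23-fold apart, a knockout level of 77.5% of wild-type and a log2 fold change of -0.37 (SE 0.191).

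*Anxa5* (ENSMUSG00000027712, chr3:36448923-36475894, minus strand) encodes the abundant annexin that assembles into lattices on phosphatidylserine and is widely used as a probe of dying cells. Wild-type samples held 5480 and 5696 normalized counts and *Foxq1* cKO samples 4794 and 4747. The knockout samples were again lower in both cases, but the nearest pair differed only 1.14-fold, and the log2 fold change was -0.23 (SE 0.150).

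*Anxa6* (ENSMUSG00000018340, chr11:54979108-55033445, minus strand) encodes an annexin with a duplicated core that links membranes to the actin cortex. Its levels were 6340 and 7577 normalized counts in wild-type cells, while *Foxq1* cKO cells had 7210 and 4743. The groups overlapped, since *Foxq1* cKO sample 1 lay between the wild-type samples and only sample 2 was lower. The log2 fold change of -0.25 (SE 0.235) ranged from -0.55 to 0.057 when each sample was left out in turn. Marker sums did not follow 1 pattern. Those of the fibroblast, mural, arterial, venous and radial glia markers were lowest in *Foxq1* cKO sample 2. Without *Vwf*, however, the venous sum was highest in that sample (29639). The endothelial, microglia and macrophage, and neuronal sums were lowest in *Foxq1* cKO sample 1, and the erythroid sum in wild-type sample 2. The part of these cell types in the *Anxa6* level was not tested.

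*Anxa1* (ENSMUSG00000024659, chr19:20373428-20390944, minus strand) encodes the glucocorticoid-regulated annexin whose N terminus signals through formyl peptide receptors. It was far less abundant, at 145 and 196 normalized counts in wild-type samples against 40.3 and 223 in the knockout. The 2 knockout samples enclosed the wild-type samples and differed 5.53-fold from each other, so no difference between the groups could be resolved (log2 fold change -0.82, SE 0.974). The count-based fits gave smaller values, -0.38 in DESeq2 and -0.37 in edgeR. Leaving out 1 sample at a time gave log2 fold changes from -2.04 to 0.40. A long noncoding gene on the opposite strand, *1500015L24Rik*, covers 17517 bp of *Anxa1*, and whether reads were counted by strand was not given.

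**Figure D3:**
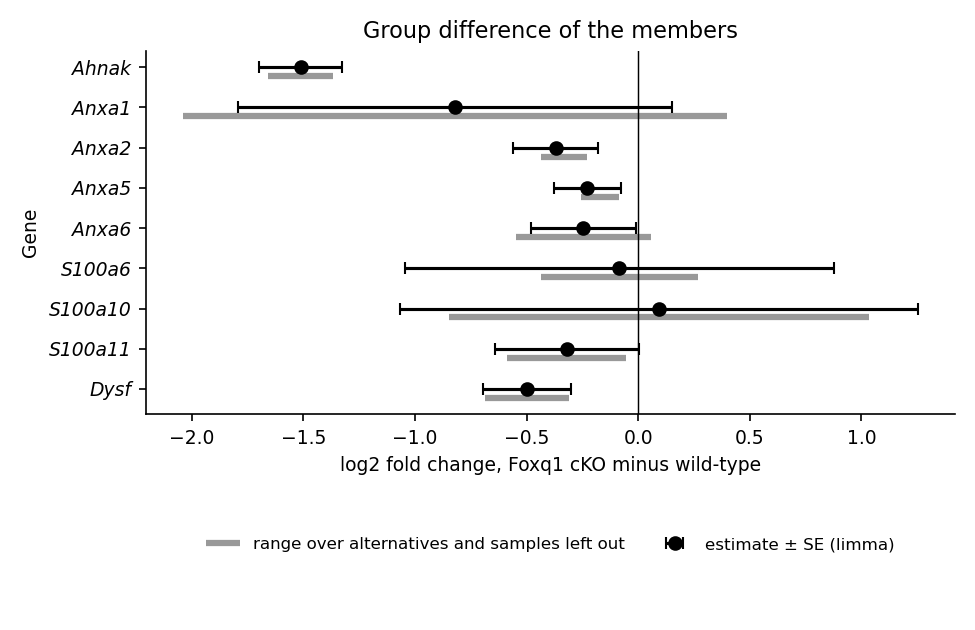
Log2 fold change (*Foxq1* cKO minus wild-type) of each member as estimated by limma with its SE (black), and the range over the alternative settings and the fits without 1 sample (grey). The range of *Ahnak* stayed between -1.66 and -1.37, while the ranges of *Anxa1*, *Anxa6*, *S100a6* and *S100a10* crossed 0.

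The S100 members were low or variable. *S100a10* (ENSMUSG00000041959, chr3:93555080-93564643, plus strand), the partner of annexin A2, had only 9.27 and 36.9 normalized counts in the wild-type group and, in the *Foxq1* cKO group, 13.1 and 30.5. These values rest on 11, 37, 12 and 30 reads, and samples of the same group differed 3.98-fold in wild-type and 2.34-fold in knockout. The log2 fold change was 0.094 (SE 1.16), the only one of the members above 0, and it ran from -0.85 to 1.04 without 1 sample. A difference in *S100a10* was not detectable with so few reads on the gene.

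*S100a6* (ENSMUSG00000001025, chr3:90612882-90624181, plus strand) encodes calcyclin, which binds annexins A2 and A6 among other proteins. Its levels were 23.6 and 32.9 normalized counts in wild-type cells, while *Foxq1* cKO cells had 33.7 and 20.3, from 20 to 33 reads each. The groups overlapped throughout (log2 fold change -0.084, SE 0.960).

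*S100a11* (ENSMUSG00000027907, chr3:93520488-93526287, plus strand) encodes the S100 partner of annexin A1 and was the most abundant of the S100 members. Wild-type samples were at 1256 and 868 normalized counts and *Foxq1* cKO samples at 876 and 798. The groups overlapped narrowly, as *Foxq1* cKO sample 1 stood just above wild-type sample 2, and the log2 fold change was -0.32 (SE 0.322). Without 1 sample it ran from -0.59 to -0.055. Of the 462 stretches of 50 bases in its 511 bp of exons, 41.1% occur also in 1 or more of the annotated genes *Gm12854*, *Gm29240* and *Gm7665*, so the assignment of its reads is uncertain.

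*Dysf* (ENSMUSG00000033788, chr6:84008590-84211060, plus strand) encodes dysferlin on a longest transcript of 6803 bp in 55 exons. Its levels were 4501 and 4499 normalized counts in wild-type samples against 2798 and 3627 in the knockout. The wild-type samples were almost equal, both knockout samples lay below them, and the nearest pair differed 1.24-fold. The knockout mean was 71.4% of wild-type, with a log2 fold change of -0.50 (SE 0.196) that ran from -0.69 to -0.31 without 1 sample. *Gm15475* and *Gm33024* overlap it on the opposite strand over 13236 and 3224 bp, and 3.12% of its stretches of 50 bases are shared with them.

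Across the 9 members, 8 had a negative log2 fold change, and the median was -0.32 beside 0.0086 for all genes tested. In 4 members both knockout samples lay below both wild-type samples, in none above them, and in 5 the groups overlapped. Of all genes tested, 18.03% had both knockout samples below both wild-type samples, and 35.98% were separated in either direction. At an unadjusted p under 0.05 in limma, *Ahnak* and *Dysf* were lower, beside 5.22% of all genes called in either direction and 3.05% called lower. *Ahnak* was under that level in all 12 alternatives and all 4 fits without 1 sample, whereas *Dysf* was not with quantile normalization, eBayes without a trend, no moderation or scaling to the endothelial markers, nor without either wild-type sample or without *Foxq1* cKO sample 1. After Benjamini-Hochberg adjustment limma left 0 genes under 0.05, members included, against 651 genes without adjustment. DESeq2 and edgeR on the recovered reads gave 59 genes and 0 genes at an adjusted p under 0.05, and *Ahnak* was the only member among the 59. Nothing about the members is read from these counts, since the same contrast was known when they were chosen.

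**Figure D4:**
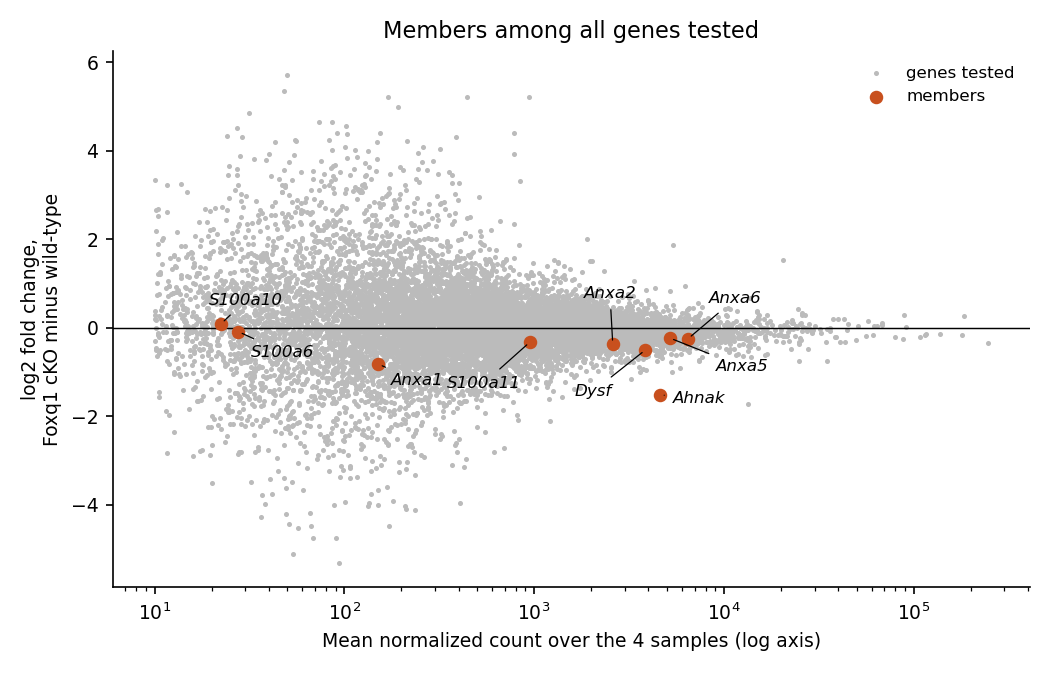
Log2 fold change (*Foxq1* cKO minus wild-type) against mean normalized count on a log axis for the 12472 genes tested (grey), with the 9 members in orange. The scatter of all genes narrows as counts rise, and *Ahnak* at -1.51 lies below most genes of similar abundance, with the other 8 members between -0.82 and 0.094.

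To compare levels between genes, normalized counts were divided by the merged length in kilobases of the exons of all annotated transcripts. This length exceeds the longest transcript for some members (*Anxa1*, 2911 against 1674 bp) and equals it for *S100a11* (511 bp), which affects levels between genes. The paper names Smart-seq2 for these libraries, and evenness of coverage along the transcripts was not examined. By this measure *Anxa5* was the highest member in wild-type cells with a mean of 3144 per kilobase, followed by *Anxa6* (2375), *S100a11* (2079), *Anxa2* (784), *Dysf* (540.4), *Ahnak* (342), *Anxa1* (58.6), *S100a6* (20.7) and *S100a10* (19.0). The order of the means was identical in *Foxq1* cKO cells, from *Anxa5* at 2685 to *S100a10* at 17.98, with *Ahnak* at 119.6. Sample ranges overlapped between the neighbours *Anxa6* and *S100a11* and between *S100a6* and *S100a10* in both groups, and also between *Anxa1* and *S100a6* in the knockout group.

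The balance between partners was read from the same levels per kilobase. The ratio of *Ahnak* to its anchor *Anxa2* was 0.391 and 0.483 in the wild-type group and, in the *Foxq1* cKO group, 0.198 and 0.196, and its ratio to *Dysf* was 0.570 and 0.697 against 0.341 and 0.286. Both ratios were lower in both knockout samples, so *Ahnak* transcript was lower relative to the transcripts of these partners as well as to the whole library. *Anxa2* exceeded its S100 partner *S100a10* by 103 and 25.6 times in wild-type and 53.8 and 25.2 times in knockout samples, a ratio that rests on few *S100a10* reads. The ratio of *Anxa1* to *S100a11* was 0.0203 and 0.0397 against 0.00807 and 0.0490, and the groups overlapped.

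Summed over members of a family, the 4 annexins gave 14902 and 16381 normalized counts in wild-type cells, while *Foxq1* cKO cells had 14207 and 12083. The 3 S100 genes, nearly all of it *S100a11*, gave 1289 and 938 against 923 and 848. Both sums were lower in the knockout samples, by a narrow margin between the nearest samples. With the other listed family members added, the 8 annexins summed to 25787 and 25204 against 24870 and 21707, and the 8 S100 genes to 13733 and 12112 against 11880 and 10764. The remaining abundant members of each family carried much of these totals. *Anxa3*, the most-read of the other annexins, was at 7273 and 5733 in wild-type samples against 7960.2 and 6925 in the knockout (log2 fold change 0.20, SE 0.178, adjusted p = 0.882 in limma). *S100a16*, the most-read other S100 gene, was at 11749.5 and 10248 against 10107 and 8993 (log2 fold change -0.20, SE 0.144, adjusted p = 0.861 in limma).

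A wider set of 81 genes of the same families and pathways was examined, and 55 of them were listed and tested. At an unadjusted p under 0.05 in limma, 2 of the 55 (3.64%) were lower and none was higher, and none passed adjustment. Of all genes, 5.22% were called in either direction and 3.05% were called lower. In 14 (25.5%) both knockout samples lay below both wild-type samples, beside 18.03% of all genes, and in 5 (9.09%) above, beside 17.95% of all genes. The median log2 fold change was -0.35 for 4 other annexins, -0.20 for 5 other S100 genes, -2.17 for 2 other ferlins, -0.13 for 11 genes of membrane repair, 0.30 for 11 binding partners, -0.23 for 5 genes of the surface plasmin system and -0.083 for 17 genes of the cortical actin and membrane skeleton. The 3 formyl peptide receptor genes were not listed.

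The gene of membrane repair that passed the unadjusted threshold was *Chmp4b*, which encodes an ESCRT-III subunit that closes small membrane wounds. It was at 137 and 115 normalized counts in the wild-type group and, in the *Foxq1* cKO group, 10.9 and 3.05, the latter from 10 and 3 reads. Both knockout samples lay far below wild-type (log2 fold change -4.18, SE 1.03, unadjusted p = 0.00636, adjusted p = 0.857 in limma), and the unadjusted p stayed under 0.05 in all 12 alternatives. It did so too in the 4 fits without 1 sample, where the spread comes from the other group and limma's trend across genes, and the lone sample is assumed to vary alike. The other was *Sptan1*, the alpha spectrin of the membrane skeleton, at 23704 and 24767 against 19827 and 19469 (log2 fold change -0.30, SE 0.104, unadjusted p = 0.0269, adjusted p = 0.857 in limma). That call was lost in 4 of the 12 alternatives and in each of the 4 fits without 1 sample.

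Of the other ferlins only *Myof* and *Fer1l5* were listed. *Myof*, which encodes myoferlin, a relative of dysferlin present in ECs, was at 317 and 231 normalized counts in wild-type cells, while *Foxq1* cKO cells had 123 and 3.05, the last from 3 reads. Both knockout samples were lower but differed widely from each other (log2 fold change -3.60, SE 1.61, unadjusted p = 0.0667, adjusted p = 0.857 in limma). The log2 fold change was smaller in the count-based fits, at -2.12 in both DESeq2 and edgeR (unadjusted p of 0.0790 and 0.188). The unadjusted p was 0.0277 with the replicate number as a block and 0.00385 without *Foxq1* cKO sample 1, where the spread comes from the wild-type samples and limma's trend, and the log2 fold change was -1.13 without *Foxq1* cKO sample 2. *Fer1l5*, named after its values were seen, was at 147 and 201 against 90.4 and 118 (log2 fold change -0.73, SE 0.676, adjusted p = 0.887 in limma). Among the binding partners, *Ctsb*, the cathepsin B gene, had the most reads and was at 12196 and 12288 against 9334 and 10923 (log2 fold change -0.28, SE 0.137, adjusted p = 0.857 in limma). In the plasmin system *Serpine2*, a protease inhibitor gene, was at 12123 and 9783 against 8683 and 9557 (log2 fold change -0.26, SE 0.157, adjusted p = 0.857 in limma).

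**Figure D5:**
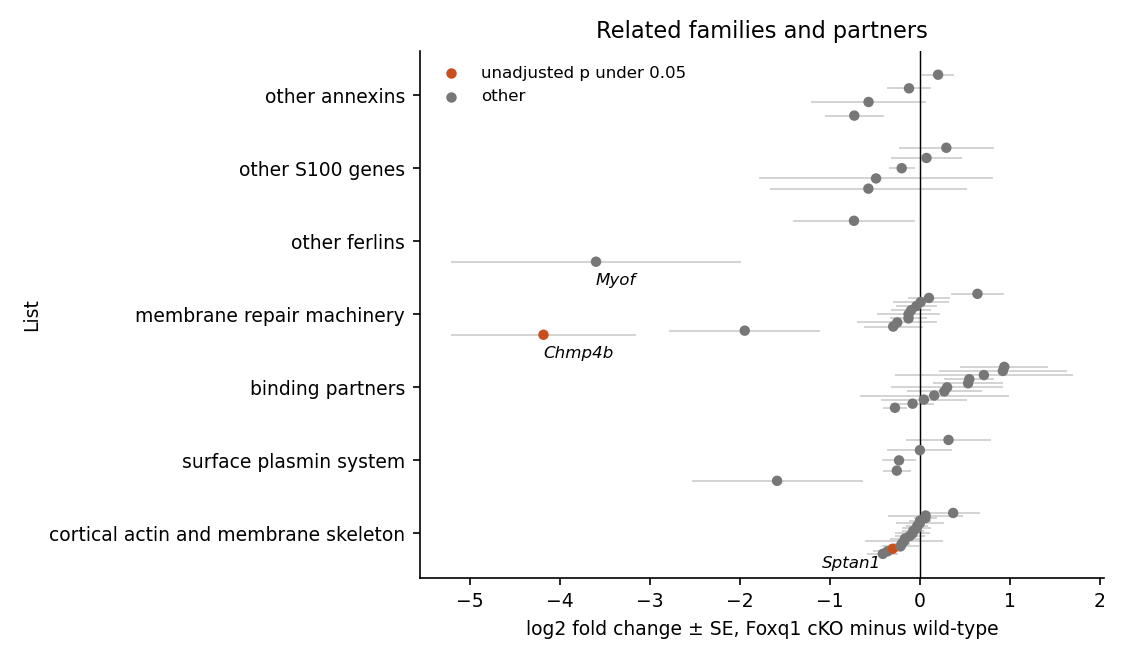
Log2 fold change (*Foxq1* cKO minus wild-type) with its SE for the 55 family and partner genes, grouped by list. Orange points (*Chmp4b* and *Sptan1*) had an unadjusted p under 0.05 in limma, and most other points lie close to 0.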

How the data were processed

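RNA was extracted with TRIzol from CD31-sorted cortical cells, and 2 wild-type and 2 *Foxq1* cKO libraries were grouped by the genotype in the labels. The submitters' processing notes name Bowtie2 2.2.3, TopHat2 2.0.12, HTSeq 0.6.0 and the mm9 build, without roles. The authors deposited 1 table of normalized counts, a signal per gene; its 1207361 lines repeat genes and were reduced to 12693 symbols. All values were whole multiples of 1 step per sample (tolerance 0.001), so reads were recovered, with medians of 438 to 550 per gene. Amplified reads without molecular identifiers are not independent molecules.

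Log2(value + 1) of 12472 genes with a mean of at least 10 was fitted with limma 3.58.1 (eBayes with a trend) in R 4.3.3, with Benjamini-Hochberg adjustment over all of them. Fold changes are differences of mean log2(value + 1), which can differ from the ratio of group means where samples of a group differ widely. edgeR 4.0.16 (quasi-likelihood, TMM) and DESeq2 1.42.0 on recovered reads, pseudocounts of 0.1 and 5, no filter, a minimum mean of 50, TMM, quantile normalization, eBayes without a trend, no moderation, the replicate number as a block and each sample left out were alternatives. Scaling to the endothelial markers was added after seeing the data. The tests were also run on counts simulated from the means and dispersions of these data, and the outcome is not reported here. The members and gene lists were chosen with earlier results of these data known. Besides *Foxq1* and the members, genes were named where a list's gene had an unadjusted p under 0.05, or else its gene with the most reads, with the 3 profiles nearest to *Ahnak* among genes with a mean of at least 50. Lengths, loci and overlaps came from GENCODE (GRCm38) and promoters from RefSeq (GRCm38.p6), independent of the mm9 alignment.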

Additional observations from a re-analysis of the deposited data

How the results depend on the processing

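With 2 samples a group the median SE of a log2 fold change was 0.496, which limits what can be resolved, most of all for *S100a6* and *S100a10* with at most 37 reads. The 12 alternatives that kept all samples gave 592 to 804 genes at an unadjusted p under 0.05 (651 reported), and fits without 1 sample gave 276 (without *Foxq1* cKO sample 1) to 1569 (without wild-type sample 2). DESeq2 gave 59 genes at an adjusted p under 0.05 where limma, edgeR and the fits without 1 sample gave 0. Members at an unadjusted p under 0.05 numbered 1 instead of 2 with quantile normalization, with eBayes without a trend and with scaling to the endothelial markers, and 1 to 2 without 1 sample (1 without either wild-type sample or without *Foxq1* cKO sample 1), with *Ahnak* the member left each time. Without moderation there were 3, namely *Ahnak*, *Anxa2* and *Anxa5*. Family and partner genes at that level numbered 2 to 6 without 1 sample, with 6 without wild-type sample 2. The median log2 fold change of the members was -0.18 with scaling to the endothelial markers, a choice made after seeing the data that moved the median of all genes by 0.14, and -0.44 to -0.31 without 1 sample. That scaling gave 437 genes higher and 217 lower, and eBayes without a trend 337 and 338, beside 271 and 380. The split was 510 higher and 316 lower without wild-type sample 1, 983 and 586 without wild-type sample 2, 66 and 210 without *Foxq1* cKO sample 1, and 106 and 375 without *Foxq1* cKO sample 2. Fits without 1 sample assume that the lone sample varies like the other group. *Foxq1* kept -4.47 without moderation but with an unadjusted p of 0.0649 in limma's fit, and ranged from -5.66 to -3.28 without 1 sample. *Ahnak* stayed between -1.66 and -1.37 in all of these fits. Same-numbered samples did not deviate together (r = 0.0325 across 12472 genes, which are not independent replicates), so the replicate block, which gave 693 genes at an unadjusted p under 0.05, pairs samples by number only.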
